A study of Mus musculus with 18 samples.

Results

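The 9 complement genes described here were measured in cultured mouse tendon fibroblasts (TFs): C1ra, C1s1, C2, C3, C4b, C7, Cfb, Serping1 and Cd55. They were selected by symbol as 9 of the 55491 rows of a gene count table, and C7 was noted beforehand because its counts were lower in control TFs in 1% O2. That contrast, control TFs in 1% against 20% O2, is therefore given as a description without a test for all 9 genes.

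Poly-A RNA was sequenced from mouse tail TFs after 4 days of culture, in 6 groups of 3 libraries. Control TFs (Ctrl; labelled wild-type, and Cre-negative according to the methods of the study) and Hif1a knockout TFs (cKO) were each kept in 20% O2 or 1% O2. Ctrl TFs were also treated with Cre gesicles, vesicles that carry the Cre recombinase protein into cells, at each O2 level. The cKO mice lack Hif1a in cells in which ScxCre, a Cre driven by the tendon transcription factor gene Scleraxis, was active, so that cells without that activity keep the gene. The donors were male and female mice of 4 to 6 months, on a mixed strain background. The O2 groups of a genotype carry the same replicate numbers. The labels give the gesicle-treated cells, like the untreated Ctrl cells, a wild-type genotype without naming a floxed allele. The methods of the study instead list Cre-negative control mice as Hif1a flox/flox, and they do not describe the gesicle treatment.

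Complement is a cascade of plasma and tissue proteins that marks microbes and damaged cells. C1r and C1s are the proteases of the C1 complex, which starts the classical pathway. C1r activates C1s, and C1s cuts C4 and C2. C3 is the central component on which all routes converge. Factor B is the protease of the alternative pathway, and C7 belongs to the membrane attack complex at the end of the cascade. C1 inhibitor, the product of Serping1, blocks C1r and C1s, and Cd55 (decay-accelerating factor) takes apart the C3 convertases on the surface of the body's own cells. The liver makes most circulating complement, and fibroblasts are a known local source of several components.

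Library totals ranged from 6857558 counts (cKO in 1% O2, replicate 1) to 51806451 counts, and levels are TMM-scaled CPM, that is, counts relative to library size. Hif1a, the targeted gene, had 348 ± 19.6 CPM in Ctrl and 377 ± 72.8 CPM in cKO-labelled TFs in 20% O2, and 419.5 ± 62.9 CPM against 443 ± 54.3 CPM in 1% O2 (mean ± SD, n = 3). The cKO label did not go with a lower level (log2 difference of 0.11 in 20% O2, adjusted p = 0.693, and 0.079 in 1% O2, adjusted p = 0.778, edgeR), and these gene-level counts do not show whether part of the transcript was removed. By quantitative PCR in a longer culture, the study reported reduced Hif1a expression in cKO tail TFs. It also reported damped expression of the hypoxia-sensitive gene Hilpda in these cells. Every comparison with cKO below goes by the label. Of 9 tendon fibroblast markers, 8 had counts in every library, and Kera had 0 to 12. The 10 leukocyte markers summed to 19.3 to 38.4 CPM, carried by Lyz2 (78 to 969 counts) and Cd14 (100 to 580 counts), with 11 to 102 counts of Csf1r and 3 to 90 of Cd68. The defining marker Ptprc had at most 5 counts, Adgre1 at most 6, and Cd3e was at 0 in all libraries. The hepatocyte genes Alb and Apoa1 had at most 1 count and 0 counts.

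The genes lie on 5 chromosomes of the GRCm38 build. C1ra (ENSMUSG00000055172, chr6:124512405-124523443, plus strand) and C1s1 (ENSMUSG00000038521, chr6:124530345-124542359, minus strand) are neighbours. C4b (ENSMUSG00000073418, chr17:34728380-34743882), Cfb (ENSMUSG00000090231, chr17:34856374-34862518) and C2 (ENSMUSG00000024371, chr17:34862604-34898265) follow each other on the minus strand within the major histocompatibility region. C3 (ENSMUSG00000024164, chr17:57203970-57228136), C7 (ENSMUSG00000079105, chr15:4988762-5063740), Serping1 (ENSMUSG00000023224, chr2:84765387-84775444) and Cd55 (ENSMUSG00000026399, chr1:130439027-130462744) are all on the minus strand. Some members have near-identical copies to which reads could be assigned. Of these, C1rb, C1s2, C4a and Cd55b had at most 10, 19, 8 and 3 counts in any library. These counts come from the same assignment of shared reads, so they cannot show whether reads of a copy went to a member.

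The 3 upstream sequences are shown because they belong to a member with high counts (Cd55), to a member of the neighbouring pair that moved most with Serping1 (C1s1), and to the gene that was noted in 1% O2 (C7). Each is the 250 bases before a RefSeq start site in GRCm38.p6, read 5′ to 3′ on the minus strand, from chr1:130462745-130462994, chr6:124542360-124542609 (the upstream of 2 C1s1 start sites) and chr15:5063774-5064023. Capitals mark a match to 1 of 5 motifs searched on both strands.
Cd55: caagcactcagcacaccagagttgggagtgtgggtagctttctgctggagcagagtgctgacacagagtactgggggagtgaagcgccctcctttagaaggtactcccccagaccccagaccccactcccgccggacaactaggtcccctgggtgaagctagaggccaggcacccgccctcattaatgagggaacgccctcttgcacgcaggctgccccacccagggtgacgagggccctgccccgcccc
C1s1: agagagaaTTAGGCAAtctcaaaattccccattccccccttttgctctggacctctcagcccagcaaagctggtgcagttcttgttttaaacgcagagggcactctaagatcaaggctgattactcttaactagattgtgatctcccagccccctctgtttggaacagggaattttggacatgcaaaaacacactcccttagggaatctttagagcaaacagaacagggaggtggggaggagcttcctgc
C7: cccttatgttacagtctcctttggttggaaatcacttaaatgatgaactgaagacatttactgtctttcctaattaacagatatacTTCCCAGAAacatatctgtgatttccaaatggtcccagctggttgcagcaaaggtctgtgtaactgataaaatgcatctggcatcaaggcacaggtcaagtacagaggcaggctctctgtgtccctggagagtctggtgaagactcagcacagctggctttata
The motifs were the core of the HIF site (ACGTG), an NF-kB site (GGANTTNCC), a GAS site bound by STAT factors (TTCNNNGAA), an interferon element (TTTCNNTTT) and a C/EBP site (TTGCNNAA). The C1s1 window held 1 C/EBP match, at position −242 from the start site, and the C7 window held 1 GAS match at −164. The Cd55 window held none. Of 32851 mouse promoter windows of this length, 16.6% held the HIF core, 3.15% the NF-kB letters, 7.02% the GAS letters, 9.37% the interferon element and 9.56% the C/EBP letters. RefSeq windows were matched for 5 of the 9 members, and none of them held the HIF core letters. A C/EBP match was also present at −45 of C3.

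The members spanned nearly 3 orders of magnitude in level. Per kilobase of exon, the mean over the 18 libraries was 53.0 CPM for Cd55, 39.9 CPM for Serping1, 26.7 CPM for C1ra and 12.4 CPM for C1s1. C2 had 4.04 CPM and Cfb 3.07 CPM per kilobase, and the remaining genes were lowest, at 0.221 CPM for C4b, 0.0743 CPM for C3 and 0.0738 CPM for C7. The order was not the same in every library. Cd55 exceeded Serping1 in 12 of 18 libraries, Serping1 exceeded C1ra in 13, C2 exceeded Cfb in 13, and C3 exceeded C7 in 9. C1ra was above C1s1, and C1s1 above C2, in all 18. The TFs thus held far more RNA for the C1 proteases and for the regulators than for C3, C4b and C7.

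**Figure D1:**
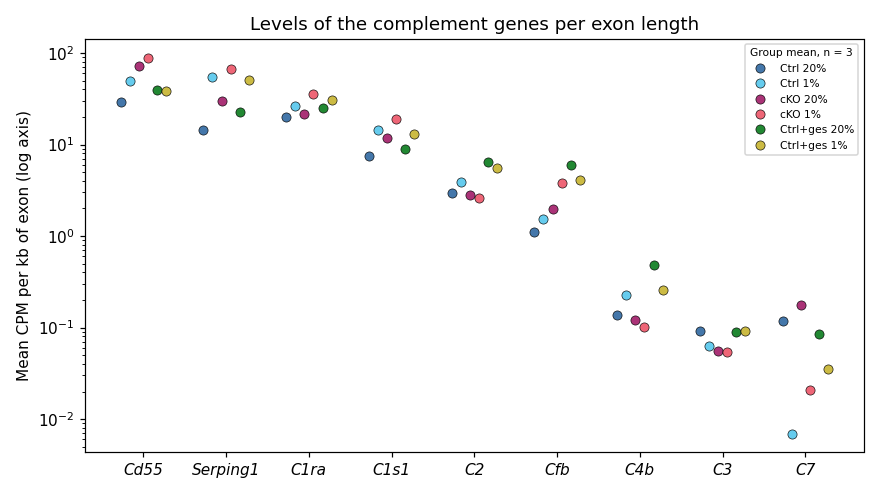
Mean CPM per kilobase of exon (log axis) for each complement gene, with 1 point per group of 3 libraries. Cd55, Serping1, C1ra and C1s1 lie above the other genes in each group, and C4b, C3 and C7 lie below 1 CPM per kilobase.

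Serping1, which encodes C1 inhibitor, was higher in 1% O2 than in 20% O2 in every arm of the study. In Ctrl TFs it had 26.9, 36.8 and 36.0 CPM in 20% O2 and 129, 114 and 139 CPM in 1% O2. In cKO-labelled TFs the values were 83.0, 62.5 and 62.9 CPM in 20% O2 and 179, 112 and 176 CPM in 1% O2, and in gesicle-treated TFs they were 56.1, 43.8 and 56.2 CPM against 107, 99.4 and 149 CPM. The 2 O2 levels did not overlap in any arm.

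In Ctrl TFs 7 of the 9 members had a positive fitted O2 difference, with a median of 0.48. That of Serping1, given without a test, was 1.94 on the log2 scale (SE 0.21, n = 3 per group). In cKO-labelled TFs Serping1 rose by 1.16 (SE 0.20, edgeR adjusted p = 0.00484), and in gesicle-treated TFs it rose by 1.19 (SE 0.20, adjusted p = 0.00481). Calls required an adjusted p below 0.05 together with a change of 1.5-fold or more, which 487 of 16174 genes tested (3.01%) met for O2 in cKO-labelled TFs and 390 (2.41%) met in gesicle-treated TFs. Of the 9 members, 2 rose and none fell in cKO-labelled TFs, and 1 rose and none fell in gesicle-treated TFs. The members' median log2 change was 0.29 in cKO-labelled and −0.065 in gesicle-treated TFs, beside −0.037 and −0.020 over all genes tested. The call on Serping1 was kept when any 1 of the 6 libraries of either comparison was left out, with adjusted p-values of 0.00259 to 0.0311 in cKO-labelled and 0.00701 to 0.0386 in gesicle-treated TFs.

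In 20% O2 Serping1 was also higher in cKO-labelled than in Ctrl TFs, at 69.4 ± 11.7 CPM against 33.2 ± 5.52 CPM (mean ± SD, n = 3). The difference was 1.06 on the log2 scale (SE 0.20, adjusted p = 0.0334), 1 of 87 calls among all genes (0.538%), and no other member was called. The members' median difference in 20% O2 was 0.59, beside 0.038 over all genes tested. It passed narrowly, since leaving out any 1 of the 6 libraries raised the adjusted p to between 0.0521 and 0.233 while the difference stayed at 0.91 to 1.13. In 1% O2 the groups overlapped, at 156 ± 37.9 CPM in cKO-labelled and 127 ± 13.0 CPM in Ctrl TFs, with a difference of 0.29 (adjusted p = 0.430). No member was called in that comparison, in which 14 genes (0.0866%) were.

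The O2 response of Serping1 was smaller by 0.77 on the log2 scale in cKO-labelled than in Ctrl TFs (SE 0.28), but this difference did not pass the test (unadjusted p = 0.0152, adjusted p = 1.00, edgeR). No gene was called for a difference in O2 response between the genotypes (0%), with 442 genes at an unadjusted p under 0.05 and 0 calls by DESeq2. These comparisons share the Ctrl libraries and are not independent of each other. In bulk RNA, fewer cells of a type and less RNA per cell cannot be told apart.

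Markers of sheath or progenitor-like fibroblasts also had higher sums in 1% O2, with overlapping ranges in cKO-labelled TFs. The summed level of 8 such markers, led by Ly6a, was 1522 to 1990 CPM in Ctrl TFs in 20% O2 and 2721 to 2795 CPM in 1% O2. It was 2073 to 3513 CPM and 2751 to 3729 CPM in cKO-labelled TFs, and 2040 to 2063 CPM and 2660 to 3144 CPM in gesicle-treated TFs. None of the 8 was at 0 in all libraries. The list did not move with O2 in the same way in every arm. In Ctrl TFs 6 of 8 differences were positive (median 0.44, no test). In cKO-labelled TFs 3 of 8 were positive and in gesicle-treated TFs 4 of 8 (medians −0.11 and −0.046). Pi16 fell from 174 to 38.8 CPM in cKO-labelled TFs (adjusted p = 0.00285) and from 65.3 to 12.6 CPM in gesicle-treated TFs (adjusted p = 0.00146). Between genotypes, 3 of the 8 rose in cKO-labelled TFs in 20% O2 (7 of 8 positive, median 0.72) and averaged over O2, and 1 of them rose in 1% O2. In 20% O2 these were Pi16 (50.4 against 174 CPM, adjusted p = 0.0334), Dpp4 (0.495 against 3.70 CPM, adjusted p = 0.0343) and Clec3b (2.63 against 10.3 CPM, adjusted p = 0.0310). The part of these markers in the Serping1 differences was not tested.

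**Figure D2:**
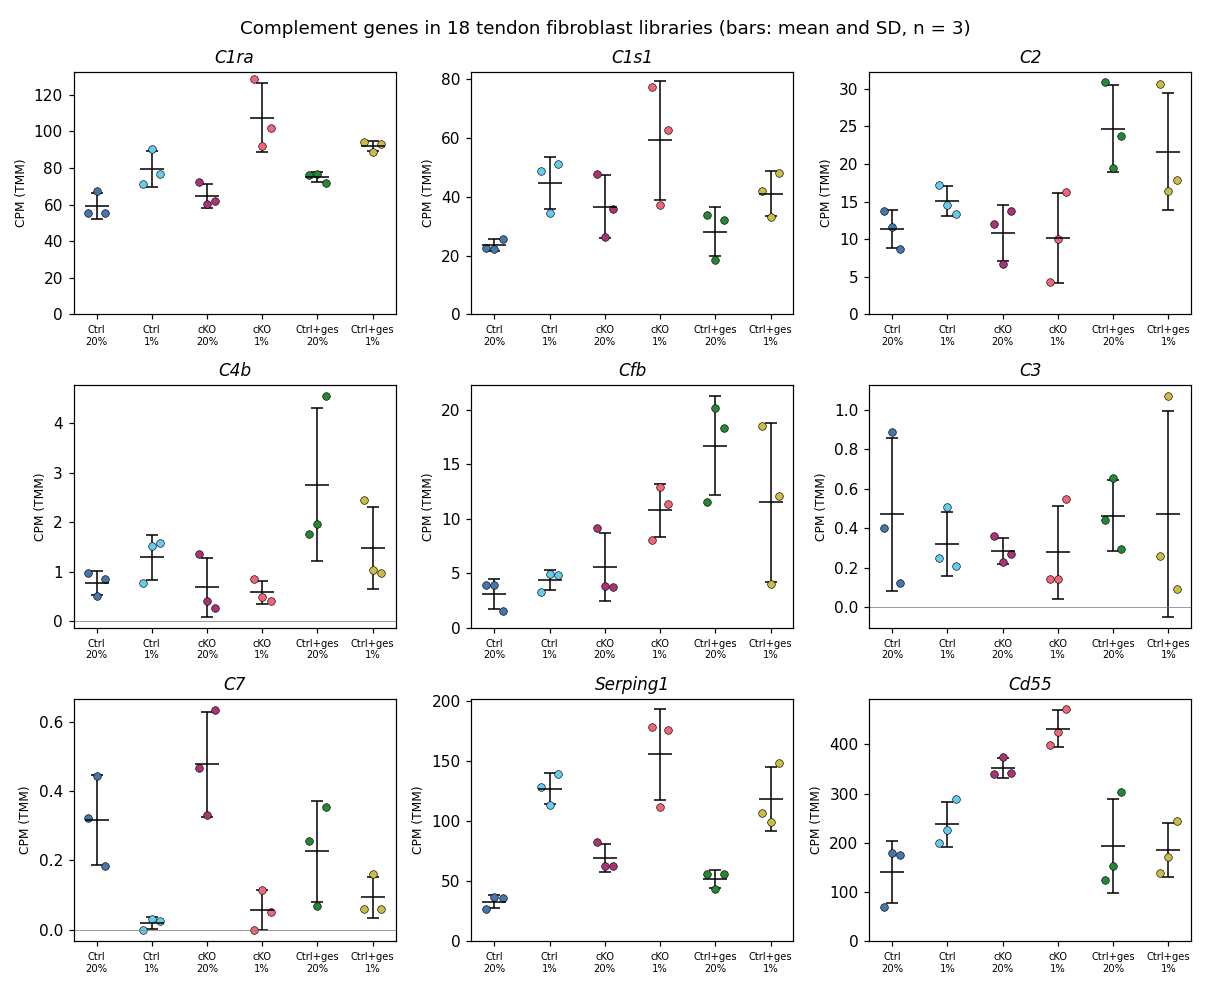
TMM-normalised CPM of each complement gene by genotype, O2 level and gesicle treatment (Ctrl+ges, gesicle-treated Ctrl), with 1 point per library and bars for the mean and SD of 3 libraries. Serping1 in 1% O2 lies above 20% O2 in every arm, C7 lies below it in Ctrl and cKO, and both cKO groups lie above both Ctrl groups for Cd55.

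C1r and C1s, the proteases that C1 inhibitor blocks, are encoded by C1ra and C1s1. C1ra had 55.2, 67.4 and 55.1 CPM in Ctrl TFs in 20% O2 and 71.4, 90.1 and 76.6 CPM in 1% O2, a difference of 0.42 on the log2 scale (SE 0.13, no test). In cKO-labelled TFs it had 72.4, 60.1 and 62.0 CPM in 20% O2 and 129, 91.9 and 102 CPM in 1% O2. The 2 O2 levels did not overlap, and C1ra rose by 0.73 (SE 0.13, adjusted p = 0.00630). Without the shallowest library, replicate 1 of cKO in 1% O2, the change was 0.58 and under the fold required for a call (adjusted p = 0.0317).

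In gesicle-treated TFs C1ra had 76.1, 76.7 and 71.8 CPM in 20% O2 and 94.2, 88.8 and 92.8 CPM in 1% O2. These groups did not overlap either, but the difference of 0.30 (SE 0.13) did not pass the test (adjusted p = 0.257). Between genotypes C1ra differed by 0.13 in 20% O2 (adjusted p = 0.622) and by 0.43 in 1% O2 (adjusted p = 0.185), where the groups did not overlap.

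C1s1 in Ctrl TFs had 22.5, 22.3 and 25.8 CPM in 20% O2 and 48.7, 34.5 and 50.9 CPM in 1% O2, a difference of 0.92 (SE 0.28, no test) with no overlap. In cKO-labelled TFs the values were 47.6, 26.4 and 35.9 CPM against 77.2, 37.2 and 62.8 CPM, and in gesicle-treated TFs 33.7, 18.5 and 31.9 CPM against 42.1, 33.0 and 48.0 CPM. Replicate 2 was the lowest of its 3 in each of these groups, and the O2 levels overlapped. Neither difference passed the test, at 0.68 (SE 0.28, adjusted p = 0.179) in cKO-labelled and 0.55 (SE 0.28, adjusted p = 0.326) in gesicle-treated TFs. In 20% O2 the cKO-labelled libraries were all above the Ctrl libraries, by 0.64 (SE 0.28, adjusted p = 0.306).

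C2 and C4 together form the C3 convertase of the classical pathway. C2 had 13.7, 11.7 and 8.76 CPM in Ctrl TFs in 20% O2 and 17.2, 14.6 and 13.4 CPM in 1% O2, which overlapped (log2 difference 0.40, SE 0.37, no test). In cKO-labelled TFs it had 12.1, 6.67 and 13.7 CPM in 20% O2 and 4.27, 9.99 and 16.3 CPM in 1% O2, with a difference of −0.041 (adjusted p = 0.967).

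The lowest of these values, 30 counts in replicate 1 of cKO in 1% O2, coincided with 45 counts of Gm20547 in that library. Gm20547 is a gene model on the same strand that spans most of Cfb and part of C2, and it had 0 counts in the other 17 libraries. With these counts added, C2 stood at 10.7 CPM in that library, and the difference in cKO-labelled TFs became 0.20 (adjusted p = 0.745). Whether the 45 counts came from C2, from Cfb or from a joint transcript cannot be told apart in gene-level counts.

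In gesicle-treated TFs C2 had 30.9, 19.5 and 23.8 CPM in 20% O2 and 30.6, 16.4 and 17.9 CPM in 1% O2, which overlapped (−0.19, adjusted p = 0.834). All 3 gesicle-treated libraries in 20% O2 lay above the 3 untreated Ctrl libraries, by 1.12 on the log2 scale (SE 0.37). This difference did not pass the test over all genes (adjusted p = 0.929).

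C4b was low, with 6 to 230 counts per library, but above the floor of 3 counts in all 18. It had 0.965, 0.502 and 0.852 CPM in Ctrl TFs in 20% O2 and 0.773, 1.52 and 1.58 CPM in 1% O2, a difference of 0.74 (SE 0.57, no test). Gesicle-treated TFs in 20% O2 had 1.76, 1.97 and 4.54 CPM, all above untreated Ctrl TFs, by 1.83 (SE 0.57, adjusted p = 0.802). In 1% O2 they had 2.44, 1.03 and 0.963 CPM. The cKO-labelled TFs had 1.36, 0.407 and 0.272 CPM in 20% O2 and 0.853, 0.489 and 0.400 CPM in 1% O2. For O2, neither the cKO-labelled difference of −0.34 (adjusted p = 0.801) nor the gesicle-treated difference of −0.90 (adjusted p = 0.426) passed the test, and in 1% O2 cKO-labelled and Ctrl TFs differed by −1.30 (adjusted p = 0.287).

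C3 was barely detected, at 1 to 33 counts in any library. Its group means were 0.470 ± 0.386 CPM in Ctrl TFs in 20% O2, 0.321 ± 0.162 CPM in Ctrl TFs in 1% O2, and 0.286 ± 0.0659 and 0.279 ± 0.235 CPM in cKO-labelled TFs (mean ± SD, n = 3). In gesicle-treated TFs they were 0.464 ± 0.181 and 0.473 ± 0.522 CPM. All groups overlapped, and at this depth no difference was detectable.

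Cfb encodes factor B, which forms the alternative pathway convertase with C3. It was lowest on average in untreated Ctrl TFs, with 3.91, 3.93 and 1.55 CPM in 20% O2 and 3.31, 4.91 and 4.90 CPM in 1% O2 (log2 difference 0.48, SE 0.49, no test). Gesicle-treated TFs had 11.6, 20.2 and 18.4 CPM in 20% O2 and 18.5, 4.01 and 12.1 CPM in 1% O2. The cKO-labelled TFs had 9.14, 3.87 and 3.72 CPM in 20% O2 and 8.11, 12.9 and 11.3 CPM in 1% O2.

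In 20% O2 all gesicle-treated libraries lay above the untreated ones, at 16.7 ± 4.55 CPM against 3.13 ± 1.37 CPM (mean ± SD, n = 3), a log2 difference of 2.41 (SE 0.50). With edgeR this did not pass the test (adjusted p = 0.192). It passed with DESeq2 (2.42, adjusted p = 4.43e-04) and with edgeR without the filter on low counts (2.43, adjusted p = 0.0151), but not with RLE size factors (adjusted p = 0.194) or Xist as a covariate (0.223), while leaving out 1 library gave adjusted p-values of 0.243 to 1. No member was called in this comparison, in which 4 genes (0.0247%) were. In 1% O2 the difference was 1.40 (SE 0.49, adjusted p = 1) and the groups overlapped. In that comparison no gene was called by edgeR (0%) or DESeq2, with 324 genes at an unadjusted p under 0.05.

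For cKO against Ctrl in 1% O2, the 3 cKO-labelled libraries lay above the 3 Ctrl libraries for Cfb, by 1.32 (SE 0.49, adjusted p = 0.220). In 20% O2 the groups overlapped (0.82, adjusted p = 0.404). Averaged over O2, Cfb was higher in cKO-labelled TFs by 1.07 (SE 0.35, adjusted p = 0.0671), which passed with DESeq2 (1.06, adjusted p = 0.0178), with the 2 libraries of each replicate number summed (1.08, adjusted p = 0.0215) and without the filter (1.06, adjusted p = 0.0397), but not with RLE size factors (adjusted p = 0.0672), Xist as a covariate (0.0867) or the fit of 12 libraries (0.0536). For O2, Cfb differed by 0.98 in cKO-labelled TFs (adjusted p = 0.263) and by −0.53 in gesicle-treated TFs (adjusted p = 0.604).

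C7, whose product inserts the forming attack complex into membranes, was the gene noted in Ctrl TFs. Its counts there were 12, 15 and 6 in 20% O2 and 0, 1 and 1 in 1% O2. Scaled by library size, the summed counts were 17.2-fold higher in 20% O2, with a 95% exact counting interval of 4.40 to 148. These values chose the gene and are not evidence of its direction.

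The arms not used in that choice also had fewer C7 counts in 1% O2. C7 passed the filter on low counts only through libraries in 20% O2, as no library in 1% O2 had more than 5 counts. Tests of C7 for O2 that use this filter are therefore tilted toward a fall, and are not taken as support for one. In cKO-labelled TFs the counts were 13, 13 and 28 in 20% O2 and 0, 4 and 2 in 1% O2, or 54 against 6 in all, a ratio of 6.61 (2.85 to 18.8, counting error only). The groups did not overlap. The fitted difference of −2.68 on the log2 scale (SE 0.73) just missed the threshold with edgeR (adjusted p = 0.0515), and it passed with DESeq2 (−2.75, adjusted p = 0.0376) and with RLE size factors (−2.68, adjusted p = 0.0498). It did not pass without the filter on low counts (adjusted p = 0.0966), with Xist as a covariate (0.0546) or in a fit of the 12 Ctrl and cKO libraries (0.0641). Leaving out 1 library gave adjusted p-values of 0.0351 (without replicate 2 of cKO in 20% O2, −2.90) to 0.158.

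In gesicle-treated TFs the C7 counts were 11, 3 and 18 in 20% O2 and 2, 5 and 2 in 1% O2, or 32 against 9, a ratio of 2.54 (1.18 to 6.05). Replicate 2 went the other way, the groups overlapped, and the difference of −1.27 (SE 0.68) did not pass the test (adjusted p = 0.354). A floor of 3 counts stood for 0.0592 to 0.427 CPM over the 18 libraries, so that C7 in 1% O2 was at or close to the limit of detection. The summed level of 5 endothelial markers also differed with O2, at 27.9 to 45.5 CPM in 20% O2 and 11.5 to 27.6 CPM in 1% O2 in Ctrl TFs, and at 37.2 to 76.6 CPM and 16.8 to 40.0 CPM in cKO-labelled TFs. It was 25.8 to 61.3 CPM and 17.4 to 25.2 CPM in gesicle-treated TFs. Most of that sum was Tek, while Pecam1, Cdh5 and Emcn had at most 9, 26 and 2 counts. Kdr had 42 summed counts in 20% O2 and 3 in 1% O2 in Ctrl TFs, 6 and 0 in cKO-labelled TFs, and 63 and 2 in gesicle-treated TFs. Like C7, Kdr passed the filter only through libraries in 20% O2, with at most 2 counts in any library in 1% O2. Its call in gesicle-treated TFs (edgeR adjusted p = 0.0339) is therefore not taken as support for a fall. The part of these markers in the C7 difference was not tested.

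Cd55 was the most abundant member and the one whose genotype groups did not overlap at either O2 level. It had 69.4, 180 and 176 CPM in Ctrl TFs and 340, 375 and 342 CPM in cKO-labelled TFs in 20% O2. In 1% O2 the values were 200, 226 and 289 CPM in Ctrl and 398, 424 and 472 CPM in cKO-labelled TFs. Every cKO-labelled library was above every Ctrl library.

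The differences at single O2 levels did not pass the test. They were 1.31 on the log2 scale in 20% O2 (SE 0.34, adjusted p = 0.102) and 0.86 in 1% O2 (SE 0.34, adjusted p = 0.233). The first passed with DESeq2 (1.29, adjusted p = 0.0122), without the filter (1.29, adjusted p = 0.0354) and with Xist as a covariate for sex (1.57, adjusted p = 0.0288), but not with RLE size factors (adjusted p = 0.109) or in a fit of the 12 Ctrl and cKO libraries (0.0844). Sex is uneven between the genotypes, with 1 male and 2 female Ctrl donors and 2 male and 1 female cKO donors.

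Averaged over O2, Cd55 rose by 1.08 (SE 0.24, adjusted p = 0.0197) and Serping1 by 0.68 (SE 0.14, adjusted p = 0.0152) in cKO-labelled against Ctrl TFs. These were 2 of the 9 members, beside 629 calls among all genes (3.89%). The average counts the libraries at both O2 levels as separate samples. With the 2 libraries of each replicate number summed, neither was called, at 0.99 for Cd55 (adjusted p = 0.141) and 0.31 for Serping1 (adjusted p = 0.306). The sums add raw counts, so each library weighs by its depth. Replicate 1 of cKO had 26967437 counts in 20% O2 and 6857558 in 1% O2. The summed estimates therefore weigh the O2 levels differently from the average, besides counting fewer samples. The call on Cd55 was also lost without replicate 2 of Ctrl in 1% O2 (1.06, adjusted p = 0.0551), and that on Serping1 without replicate 1 of Ctrl in 20% O2 (0.61, adjusted p = 0.0573). C1ra (0.28, adjusted p = 0.0705) and C1s1 (0.52, adjusted p = 0.0998) did not pass.

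The sheath or progenitor-like markers Pi16, Dpp4 and Clec3b, given above with Serping1, rose with Cd55 in cKO-labelled TFs. Pericyte or smooth muscle markers were lower in those libraries. The sum of 4 such markers was 93.2 to 158 CPM in Ctrl and 35.7 to 47.0 CPM in cKO-labelled TFs in 20% O2, and 46.2 to 91.3 CPM against 29.4 to 48.6 CPM in 1% O2. None was at 0 in all libraries. The sum of the 9 tendon fibroblast markers in 20% O2 was 10866 to 13077 CPM in Ctrl and 4277 to 9540 CPM in cKO-labelled TFs. In 1% O2 the ranges overlapped, at 5665 to 13262 CPM against 5147 to 8564 CPM. Of the 8 tendon markers tested, 4 had a positive difference in 20% O2 and none was called. The part of these lists in the Cd55 difference was not tested.

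With O2, Cd55 differed by 0.75 in Ctrl TFs (SE 0.34, no test) and by 0.29 in cKO-labelled TFs (adjusted p = 0.656). In gesicle-treated TFs it had 124, 154 and 303 CPM in 20% O2 and 138, 172 and 245 CPM in 1% O2, a difference of −0.065 (SE 0.34, adjusted p = 0.95). Gm16083, an antisense gene that overlaps 169 bases of Cd55, had 0 to 15 counts per library.

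**Figure D3:**
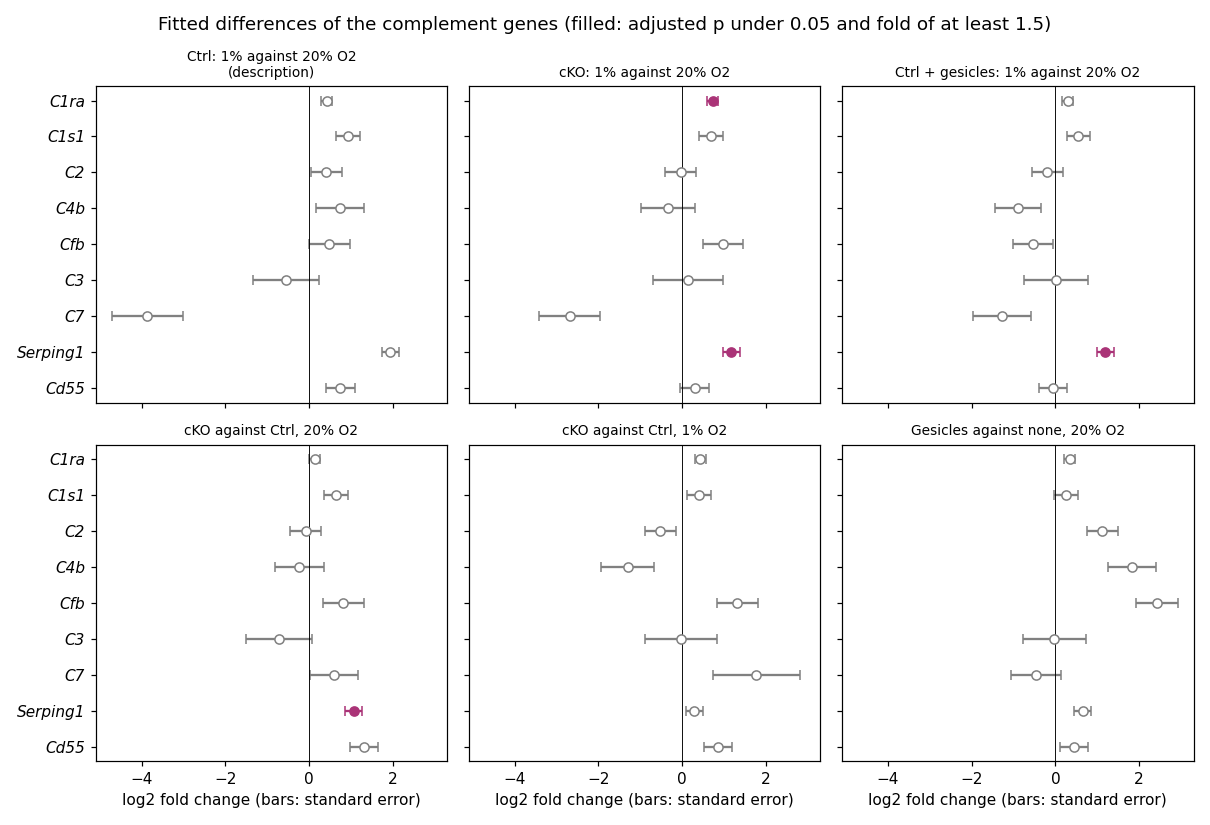
Fitted log2 fold changes of the complement genes with standard errors in 6 comparisons. Filled points met an adjusted p under 0.05 and a fold of at least 1.5, as Serping1 did for O2 in cKO (1.16) and gesicle-treated TFs (1.19); the Ctrl panel is a description without a test, and the fitted values of C3 and C7 rest on few counts.

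Across all 18 libraries, Serping1, C1s1 and C1ra varied together. Pearson's r of log2 CPM was 0.89 for Serping1 and C1s1, 0.81 for Serping1 and C1ra, and 0.69 for C1ra and C1s1, as descriptions over libraries that share donors and O2 levels. After the group means were removed these were 0.84, 0.44 and 0.32. The correlation of Serping1 with C7 was −0.70 and became −0.20 within groups. C2, C4b and Cfb had r of 0.46 to 0.55 with each other. Within groups r was −0.094 for C2 and C4b, 0.40 for C2 and Cfb, and 0.47 for C4b and Cfb.

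**Figure D4:**
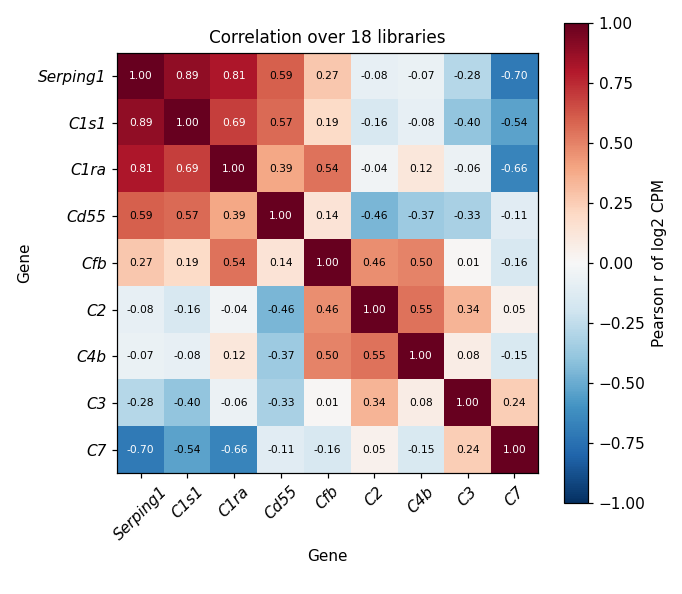
Pearson's r of log2 CPM between each pair of complement genes over 18 libraries. Serping1, C1s1 and C1ra share r of 0.69 to 0.89, and C7 has negative values with all 3.

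The genes most like each member over the 18 libraries were taken as the 3 with the highest r. For Serping1 these were Fuz (0.95), the C1r-like protease gene C1rl (0.94) and Abhd8 (0.93), and for C1s1 they were Dpep1 (0.95), Mfap2 (0.93) and Dact1 (0.90). Cfb was most like the class I histocompatibility genes H2-K1 (0.88) and H2-T23 (0.85), and Tmem106a (0.85). For Cd55 they were Prdm8, Gm26549 and Entpd2 (0.88 to 0.87), for C7 Smg9, Fmnl1 and Kcnj4 (0.93 to 0.89), for C2 Ncln, Zfp574 and Ajuba (0.90 to 0.89), and for C1ra Egfl6, Zscan22 and Zfp820 (0.87 to 0.85). C3 (Hapln4, Ltbp1 and Tmem132e, 0.87 to 0.82) and C4b (Elf1, Dpf2 and Zdhhc18, 0.77 to 0.76) had lower values. The highest of 16174 correlations are high by selection.

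The other genes of the cascade put the members in context. Of 49 further complement genes, 21 were tested, 8 had no count in any library, and 4 were called in at least 1 comparison. The C1q chains that carry C1r and C1s were nearly absent, with at most 6 counts of C1qa, 10 of C1qb and 17 of C1qc, and Cfd, the protease that activates factor B, had 0 counts throughout. Among the genes whose products join C7 in the attack complex, C6, C8a and C8b had 0 counts, C8g had 12 to 66, Hc (C5) 0 to 51 and C9 0 to 9.

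C1rl, a protease gene beside C1ra, rose in 1% O2 by 0.67 in cKO-labelled TFs (SE 0.16, adjusted p = 0.0260) and by 0.84 in gesicle-treated TFs (SE 0.16, adjusted p = 0.00843). Cd59b, an inhibitor of the attack complex, rose by 1.18 in cKO-labelled TFs (SE 0.30, adjusted p = 0.0379), from 1.18 ± 0.516 to 2.69 ± 0.272 CPM (mean ± SD, n = 3). These 2 were the calls for O2 in cKO-labelled TFs among the 21 genes, and C1rl was the only such call in gesicle-treated TFs.

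Between genotypes, Susd4, a complement-regulating membrane protein gene, fell in cKO-labelled TFs by 1.95 in 20% O2 (SE 0.32, adjusted p = 0.0131) and by 1.67 averaged over O2 (SE 0.22, adjusted p = 0.00132). Its levels in 20% O2 were 6.66 ± 1.71 CPM in Ctrl and 1.72 ± 0.502 CPM in cKO-labelled TFs (mean ± SD, n = 3). Averaged over O2, Colec12, a scavenger receptor of the collectin family, rose by 0.74 (SE 0.18, adjusted p = 0.0268), and it was called in no other comparison. That average counts the libraries at both O2 levels as separate samples, and Colec12 was not examined with the libraries summed. Colec12 was the most abundant gene of the list at 526 CPM on average. Cr1l, which limits C3 convertases like Cd55, and Masp1, a protease of the lectin pathway, followed at 109 and 86.8 CPM and were not called in any comparison.

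A further list of 22 genes held signalling genes taken as acting upstream of complement transcription, and Cxcl10, an interferon-induced chemokine gene. Of these, 18 were tested. In 1% O2 Ifngr1, an interferon gamma receptor chain, rose by 0.72 in cKO-labelled TFs (SE 0.11, adjusted p = 0.00200). Nfkb2, an NF-kB subunit, fell by 0.94 in cKO-labelled TFs (SE 0.13, adjusted p = 0.00102) and by 0.72 in gesicle-treated TFs (SE 0.13, adjusted p = 0.00721). Socs3, an inhibitor of cytokine signalling, rose in cKO-labelled against Ctrl TFs by 0.85 in 20% O2 (SE 0.18, adjusted p = 0.0496) and by 0.60 averaged over O2 (SE 0.13, adjusted p = 0.0167). No other gene of that list was called in any comparison.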

How the data were processed

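Tail TFs were cultured for 4 days and poly-A RNA was sequenced as 151 bp read pairs. Per the labels and the methods of the study, the authors trimmed reads with cutadapt, aligned them by STAR (GRCm38) and used RSEM 1.3.3 for gene quantification. The estimated counts that the authors deposited are whole numbers without normalization. No 2 libraries agreed within sampling noise (smallest chi-square per degree of freedom 14.1). The labels give 10% serum and the methods 1%, and strandedness is not given in the sources used here, so that reads of antisense pairs cannot be told apart.

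Groups follow the labels. Genes were filtered with filterByExpr and tested in 1 fit of all 18 libraries with edgeR 4.0.16 (TMM, quasi-likelihood test, Benjamini-Hochberg adjustment over 16174 genes; R 4.3.3). CPM used TMM factors of 0.962 to 1.03. P-values measure the spread between cultures of 3 mice per genotype. Alternatives were DESeq2 1.42.0, RLE size factors, no filter, a replicate block, Xist as a covariate, a fit of 12 libraries, summed libraries and leaving out each library. Adding Gm20547 counts to C2 was chosen after seeing the data. Same-numbered libraries deviated together, with every correlation above 0.1, for Ctrl between O2 levels (mean 0.343). They also did for gesicle-treated against untreated Ctrl TFs in 20% (0.404) and 1% O2 (0.246), where blocking on the number changed no call on a member. The Ctrl contrast between O2 levels has no test of members, so no call could change there. Positions and exon lengths came from GENCODE M21, which matched 99.53% of gene identifiers, and upstream sequences from RefSeq. The members and lists were chosen with earlier results of these data known. Named genes were all members, Hif1a, the genes of 2 lists that were called, the copies of members, the 3 most abundant genes of the complement list and the 3 most correlated with each member. The few genes without counts in the cascade were named after their values were seen.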

Additional observations from a re-analysis of the deposited data

Results flagged for a closer look

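Changes of C2 with O2 by replicate number had opposite signs in untreated and gesicle-treated Ctrl TFs. Every replicate number was higher in 1% O2 without gesicles (mean log2 change 0.42), and every number was lower with gesicles (mean −0.22, with replicate 1 at −0.016). The O2 levels overlapped in both arms, and the fitted difference with gesicles was −0.19 (SE 0.37, edgeR adjusted p = 0.834). Same-numbered gesicle-treated libraries did not deviate together between O2 levels, so these changes are no pairs and no direction is read with gesicles. The difference between these responses was not tested.

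The table of counts also holds rows for transgenes, which no comparison used. Reads of Cre summed to 15 over the cKO-labelled libraries, with counts in 5 of 6 of them, and there were 0 in the other 12 libraries, the gesicle-treated ones included.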

How the results depend on the processing

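Counts of called genes moved with the tool and with single libraries. DESeq2 called 893 genes for O2 in cKO-labelled TFs (edgeR 487), 728 in gesicle-treated TFs (390), 47 for gesicles in 20% O2 (4), and for cKO against Ctrl 407 in 20% O2 (87), 239 in 1% O2 (14) and 1249 averaged over O2 (629). Of the latter 3, 164, 78 and 360 were higher and 243, 161 and 889 lower, against 43, 9 and 216 higher and 44, 5 and 413 lower with edgeR. Without the filter on low counts there were 167 calls for cKO against Ctrl in 20% O2, 52 in 1% O2 and 23 for gesicles in 20% O2, and with Xist as a covariate 134, 52 and 0. A fit of the 12 Ctrl and cKO libraries gave 55 and 6 for cKO against Ctrl in 20% and 1% O2, and summing the libraries of each replicate number gave 112 averaged over O2. With the replicate block these comparisons gave 140 and 33 calls, and the same-numbered libraries of Ctrl and cKO share only a number. Under the block C1s1 passed for O2 in cKO-labelled TFs (0.67, adjusted p = 0.0371), Cd55 passed for cKO against Ctrl in 20% O2 (1.41, adjusted p = 0.0197), C7 did not pass for O2 in cKO-labelled TFs (adjusted p = 0.123), C4b there turned to 0.074 and Cd55 in gesicle-treated TFs to 0.0032. Adding Gm20547 counts turned C2 in cKO-labelled TFs to 0.20. The cause of these differences was not tested.

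Leaving out 1 library gave 253 to 1117 calls for O2 in cKO-labelled and 148 to 346 in gesicle-treated TFs, 1 to 109 and 0 to 13 for cKO against Ctrl in 20% and 1% O2, 219 to 1550 averaged, 0 to 2 for gesicles in 20% O2, and 0 to 1 for the difference in O2 response. It moved C2 from −0.52 to 0.28 and C4b from −0.72 to 0.62 for O2 in cKO-labelled TFs, and C2 from −0.52 to 0.0011 and Cd55 from −0.35 to 0.41 in gesicle-treated TFs. No direction is read for these. Fits that leave 2 libraries in a group assume that they vary like the other groups. Of 265 alternative values for single members other than left-out libraries, 248 kept their direction and their side of the threshold, as did 288 of 306 values that leave out 1 library. C3 and C7 are limited by depth, since the floor of 3 counts stands for up to 0.427 CPM.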
